A study of Mus musculus with 8 samples.

Results

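The genes described here are 36 enzymes and carriers of fatty acid and pyruvate oxidation, namely the carnitine shuttle, fatty acid β-oxidation, the electron transfer flavoprotein, the pyruvate dehydrogenase E1 subunits and the TCA cycle. They were chosen by name, with earlier results of these data known but with no threshold on a measured value, and all 36 were found among the 31053 genes counted, of which 21 belong to fatty acid oxidation and 15 to pyruvate dehydrogenase and the TCA cycle. Their mRNA was measured by 3′ RNA-sequencing in fibro/adipogenic progenitors (FAPs), the muscle-resident mesenchymal cells that can become adipocytes or fibroblasts, sorted as SCA1-High-FAPs (n = 4) and SCA1-Low-FAPs (n = 4). Both groups came from hind limb muscles of *mdx* mice (C57BL/10ScSn-Dmdmdx/J), aged 45 days, which lack dystrophin and model Duchenne muscular dystrophy, so no healthy muscle is part of the comparison. The cells were CD45-, CD31-, Integrin alpha-7- and SCA-1+, were separated by high or low surface SCA-1, and then spent 5 days in growth medium (GM), with no inducer of differentiation, before RNA was taken. The comparison asks how the 2 cell states differ in the transcripts of these pathways before adipogenic induction.

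Long-chain fatty acids enter mitochondria as carnitine esters, are shortened by repeated cycles of dehydrogenation, hydration, a further dehydrogenation and thiolysis, and pass their electrons to the respiratory chain through NADH and the electron transfer flavoprotein. Pyruvate enters through the pyruvate dehydrogenase complex, and the acetyl-CoA of both routes is burnt in the TCA cycle. Many genes of β-oxidation are known targets of PPAR nuclear receptors, which bind DNA with RXR partners, and the pathway is known for its high capacity in muscle and brown fat.

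Counts on genes ran from 1880561 to 3985656 per library, and a gene with 3 counts stood at 0.792 to 1.63 CPM (counts divided by the TMM-scaled sum over tested genes and multiplied to a common total), a limit that covers counting error only. Libraries are called replicates as labelled. The series gives 4 mice for both states and does not tie libraries to mice, so the *p*-values measure the spread between these libraries. The libraries disagreed in part with the sort labels at the mRNA level, since *Ly6a*, the gene of SCA-1, was lower in SCA1-High-FAPs after culture (711 ± 184 CPM against 1087 ± 58.8 CPM in SCA1-Low-FAPs, SD, n = 4 each, log2 fold change 0.61, edgeR adjusted *p* = 0.0341). The sort was on surface protein 5 days earlier, and the groups are therefore named by their labels throughout. *Pdgfra*, the receptor that defines FAPs, was at 223 ± 52.2 CPM and 168 ± 14.1 CPM (SD, n = 4 each, adjusted *p* = 0.159), *Pax7*, *Myf5*, *Myod1* and *Myog* of muscle stem cells had 0 counts in all libraries, and *Ptprc* of leucocytes had 1 count in all. Adipocyte markers were far higher in SCA1-High-FAPs, with 6 of 9 tested markers called by edgeR and 9 by DESeq2, 9 of 9 without overlap between the groups, and a summed level of 3150 to 12762 CPM against 522 to 1491 CPM in SCA1-Low-FAPs. Proliferation markers went the other way, with 6 of 6 called higher in SCA1-Low-FAPs and a summed level of 1021 to 1494 CPM against 524 to 734 CPM. Of the other marker lists, 1 of 7 tested FAP markers was called higher in SCA1-High-FAPs (*Dcn*) and 2 in SCA1-Low-FAPs (*Ly6a* and *Thy1*). Among pericyte and smooth muscle markers 1 of 3 tested was called towards SCA1-High-FAPs (*Notch3*) and the other 2 towards SCA1-Low-FAPs, at summed levels of 25.3 to 44.7 and 27.3 to 67.0 CPM. The leucocyte list summed to 25.3 to 48.0 CPM in SCA1-High-FAPs and 12.5 to 19.3 CPM in SCA1-Low-FAPs, with its only tested gene, *Lyz2*, called higher in SCA1-High-FAPs. The muscle fibre list summed to 4.18 to 7.69 CPM in SCA1-High-FAPs and 8.88 to 23.4 CPM in SCA1-Low-FAPs, without overlap. Its only gene with enough counts to test, *Acta1* of skeletal muscle actin, was at 0.418 to 2.82 CPM and at 5.39 to 11.1 CPM (log2 fold change 2.03, edgeR adjusted *p* = 0.0547) and was called by DESeq2 (2.06, adjusted *p* = 0.0278) but not by edgeR. Myogenic and endothelial lists stayed at or under 15.2 CPM in every library, and none of their genes had enough counts for edgeR.

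Of the 36 members, 35 had enough counts to be tested, and 2 of these, *Acadm* and *Acadl*, were differentially expressed. Both encode acyl-CoA dehydrogenases and both were higher in SCA1-High-FAPs. Differential expression here requires an edgeR adjusted *p* under 0.05 over all 10181 genes tested and a log2 fold change, SCA1-Low-FAPs over SCA1-High-FAPs, beyond 0.5 in size, so that negative values mean more mRNA in SCA1-High-FAPs. By this rule 7.68% of all tested genes were called, made up of 4.36% higher in SCA1-High-FAPs and 3.32% higher in SCA1-Low-FAPs, against 5.71%, 5.71% and 0% of the tested members. The share of members called was thus close to that of all genes. No member was called higher in SCA1-Low-FAPs, by edgeR or by DESeq2, and none of the 6 members with an unadjusted *p* under 0.05 was higher there. Those 6 are 17.1% of the members, against 21.3% of all tested genes. The CPM of the groups did not overlap for 4 members (11.4%), against 14.1% of all tested genes. DESeq2 called 8.53% of the genes it tested and edgeR with the replicate number as a block called 6.85%, and both called the same 2 members.

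Most members lay on the side of SCA1-High-FAPs. The log2 fold change was below 0 for 24 of 35 members (68.6%), against 50% of all tested genes, and the median was −0.19 against 0.0003. In fatty acid oxidation 17 of 20 tested members were below 0, with a median of −0.19. In pyruvate dehydrogenase and the TCA cycle 7 members were below 0 and 8 above, with a median of 0.01. These are counts over genes measured in the same 8 libraries, and the difference between the 2 pathways was not tested. The member values ran from −0.96 (*Acadm*) to 0.31 (*Mdh2*), as the plot of fold changes by role shows.

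**Figure D1:**
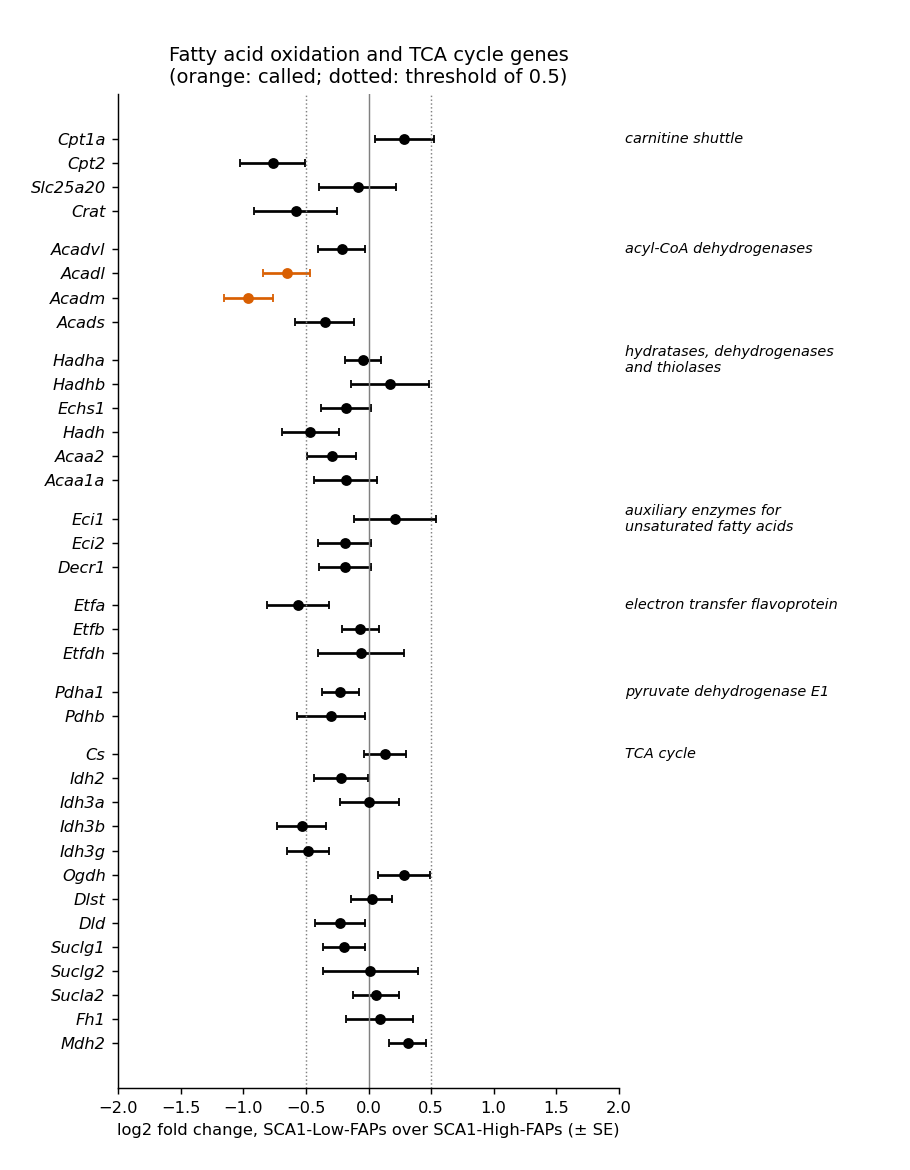
Log2 fold change of each of the 35 tested members, SCA1-Low-FAPs over SCA1-High-FAPs, on the horizontal axis, with bars of 1 standard error from edgeR and genes grouped by role. The 2 called members, *Acadm* and *Acadl*, are in orange at −0.96 and −0.66, and the dotted lines mark the threshold of 0.5 on either side of 0.

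The acyl-CoA dehydrogenases carry out the first step of each β-oxidation cycle and differ in the chain length they prefer. All 4 had log2 fold changes below 0, and 2 were called. *Acadm* encodes the medium-chain enzyme and lies on chromosome 3 of GRCm38 from 153922357 to 153944632 (minus strand). In SCA1-High-FAPs replicates 1 to 4 it was at 115, 74.1, 126 and 98.6 CPM. The SCA1-Low-FAPs replicates held 50.3, 58.3, 57.7 and 46.5 CPM, so that the lowest SCA1-High-FAPs library, replicate 2, was above every SCA1-Low-FAPs library. The means were 103 ± 22.5 and 53.2 ± 5.78 CPM (SD, n = 4 each), a 1.95-fold higher level in SCA1-High-FAPs (log2 fold change −0.96 ± 0.19 SE, edgeR adjusted *p* = 0.00545). *Acadl* encodes the long-chain enzyme and lies on chromosome 1 from 66830839 to 66863277 (minus strand). Its levels in SCA1-High-FAPs were 155, 101, 138 and 114 CPM. In SCA1-Low-FAPs they were 92.3, 63.2, 74.9 and 91.1 CPM, and the groups again did not overlap, with replicate 2 of SCA1-High-FAPs only just above replicate 1 of SCA1-Low-FAPs. The 1.58-fold difference (log2 fold change −0.66 ± 0.18 SE, edgeR adjusted *p* = 0.0367) lay closer to the threshold. The call of *Acadl* was lost when replicate 1 or 3 of SCA1-High-FAPs or any single one of the SCA1-Low-FAPs replicates was left out (adjusted *p* 0.0584 to 0.124), while *Acadm* kept its call without any 1 library (adjusted *p* 0.00359 to 0.0268). With replicates 1 and 3 of SCA1-High-FAPs both left out, neither was called (*Acadm* −0.71, edgeR adjusted *p* = 0.122, and *Acadl* −0.42, edgeR adjusted *p* = 0.388). These 2 libraries held the highest levels of both genes, and their removal was chosen after seeing the data. It left 6 libraries, and the genes called over all genes fell from 782 to 244. The reason for the lost calls was not tested.

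*Acadvl*, for very long chains and bound to the inner membrane, was at 89.9 ± 15.6 CPM in the libraries of SCA1-High-FAPs, with 77.1 ± 14.2 CPM in those of SCA1-Low-FAPs (SD, n = 4 each, log2 fold change −0.22). *Acads*, for short chains, was at 64.9 ± 22.2 and 50.8 ± 2.63 CPM (−0.35), and its SCA1-High-FAPs libraries spread from 38.9 to 92.7 CPM. Neither passed the test (adjusted *p* 0.565 and 0.426). Summed over the 4 genes, the libraries of SCA1-High-FAPs held 438, 318, 455 and 330 CPM and those of SCA1-Low-FAPs 268, 236, 284 and 258 CPM, which was 1.47 times as much in the former. That sum includes *Acadm* and *Acadl*, so it is not independent of their calls.

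**Figure D2:**
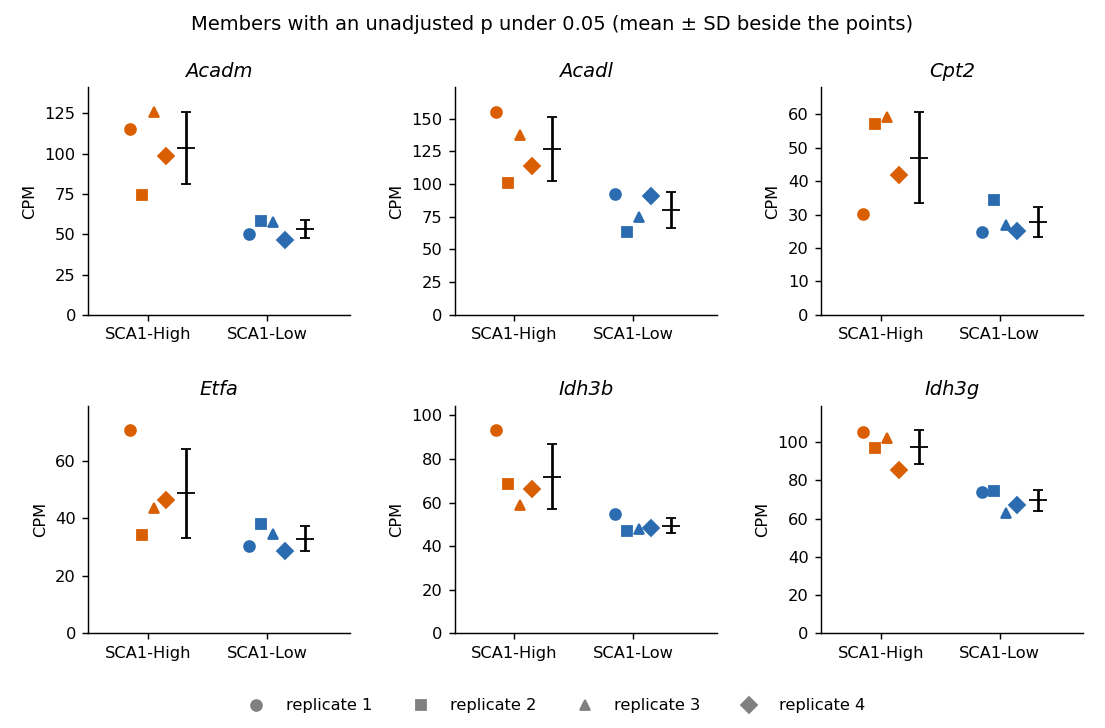
Level in CPM, on a linear axis from 0, of the 6 members with an unadjusted *p* under 0.05 in each library (marker shapes are replicates 1 to 4, orange SCA1-High-FAPs and blue SCA1-Low-FAPs), with the mean ± SD beside the points. *Acadm*, *Acadl*, *Idh3b* and *Idh3g* show no overlap between the groups, whereas *Cpt2* and *Etfa* do overlap.

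Because *Acadm* and *Acadl* were the 2 members called, their promoters are shown, as the 250 bases before the RefSeq start on GRCm38.p6, read 5′ to 3′ on the strand of the gene (minus strand, chr3:153944644-153944893 and chr1:66863310-66863559). Capitals mark the nuclear receptor hexamer AGGTCA or its reverse complement. PPAR and RXR bind such hexamers in pairs.
Acadm: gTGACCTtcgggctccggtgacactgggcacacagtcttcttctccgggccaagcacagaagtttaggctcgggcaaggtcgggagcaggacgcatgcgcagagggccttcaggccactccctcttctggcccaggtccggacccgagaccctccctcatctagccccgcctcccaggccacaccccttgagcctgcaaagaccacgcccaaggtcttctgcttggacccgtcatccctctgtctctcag
Acadl: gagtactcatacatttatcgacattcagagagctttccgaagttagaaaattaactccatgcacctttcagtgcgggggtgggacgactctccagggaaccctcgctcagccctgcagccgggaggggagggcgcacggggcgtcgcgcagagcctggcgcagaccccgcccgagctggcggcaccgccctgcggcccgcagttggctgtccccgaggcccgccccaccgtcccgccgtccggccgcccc
The *Acadm* stretch held 1 hexamer, on the opposite strand and with 243 bases between it and the start, and the *Acadl* stretch held 0, and their GC content was 64% and 68%. On both strands of the same 250 bases, AGGTCA occurred in 14% of all 32851 promoters in the RefSeq set and in 6 of the 37 promoters (16.2%) of the 32 members found there, which were those of *Acadm*, *Acadvl*, *Cpt1a*, *Echs1*, *Fh1* and *Sucla2*. The direct repeat AGGTCANAGGTCA, which contains the hexamer, was in 0.0335% of all promoters, its looser form AGGNCANAGGNCA in 0.338% and the extended hexamer TCAAGGTCA in 0.387%. None of these 3 was in a promoter of a member, an absence that says little at such low background rates. A match of letters is not a binding site, and sites outside these windows were not searched.

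In the carnitine shuttle no gene was called, and the carnitine palmitoyltransferases of the outer and the inner membrane lay on opposite sides of 0. *Cpt2*, the inner-membrane enzyme that returns the acyl group to CoA, lies on chromosome 4 from 107903981 to 107923610 (minus strand). It was at 30.1, 57.0, 59.3 and 41.8 CPM in SCA1-High-FAPs. In SCA1-Low-FAPs it was at 24.7, 34.3, 27.0 and 25.1 CPM, and replicate 1 of SCA1-High-FAPs fell within the range of SCA1-Low-FAPs. At −0.77 ± 0.26 (SE) the log2 fold change did not pass (edgeR adjusted *p* = 0.0765), but it did without that library (−0.92, adjusted *p* = 0.0387). *Cpt1a*, the outer-membrane enzyme that forms the carnitine ester and is inhibited by malonyl-CoA, was at 30.6 ± 6.04 CPM and 37.2 ± 4.60 CPM (SD, n = 4 each, log2 fold change 0.29, adjusted *p* = 0.541). *Slc25a20*, the translocase that exchanges acylcarnitine for carnitine, was at 22.3 ± 3.96 and 20.6 ± 7.47 CPM (−0.09). *Crat*, which moves acetyl and other short acyl groups to carnitine, was at 18.0 ± 3.96 and 11.9 ± 2.39 CPM (−0.58, adjusted *p* = 0.339). The last 1000 bases of *Crat* overlap *Dolpp1* on the other strand, and the strand setting of the counting is not stated, so reads of the 2 genes cannot be told apart with certainty. The same holds for *Acadvl* (*Dvl2*), *Hadha* (*Garem2*), *Pdha1* (*Map3k15*) and *Idh3b* (*Nop56*).

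No gene of the later steps of the cycle passed the test, and 5 of the 6 tested genes were below 0. *Hadha* and *Hadhb* encode the α and β subunits of the mitochondrial trifunctional protein, which hydrates, oxidises and cleaves long chains. Their genes are read away from each other on chromosome 5, and their GENCODE starts leave 85 bases between them (chr5:30155163-30155247, GC 69.4%, with 0 hexamers). These bases are shown on the plus strand, 5′ to 3′, because they are all that separates the 2 starts.
Hadha and Hadhb: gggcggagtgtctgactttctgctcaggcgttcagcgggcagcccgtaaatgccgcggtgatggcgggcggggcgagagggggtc
*Hadha* was at 198 ± 24.0 CPM in the libraries of SCA1-High-FAPs, with 192 ± 14.0 CPM in those of SCA1-Low-FAPs (SD, n = 4 each, log2 fold change −0.04). *Hadhb* was at 25.1 ± 6.56 and 28.6 ± 10.3 CPM (0.17). *Echs1*, the hydratase of shorter chains, was at 80.1 ± 18.4 and 70.8 ± 10.8 CPM (−0.18). None of these 3 was near the threshold, with adjusted *p* from 0.667 to 0.909. *Hadh*, the dehydrogenase of short and medium hydroxyacyl-CoA, was at 79.9 ± 20.9 and 58.1 ± 16.3 CPM (−0.46, adjusted *p* = 0.256), with libraries from 57.6 to 108 CPM in one group and from 45.9 to 81.1 CPM in the other. *Acaa2*, the mitochondrial thiolase, was at 65.4 ± 6.76 and 53.5 ± 9.28 CPM (−0.29). *Acaa1a*, a peroxisomal thiolase with a near-identical copy *Acaa1b* (17 counts in all libraries), was at 47.2 ± 14.0 and 41.3 ± 11.0 CPM (−0.18). Because reads that fit several places were given to no gene, the level of *Acaa1a* is uncertain. *Ehhadh*, the peroxisomal bifunctional enzyme, was not tested, with 2 counts in replicate 1 and 1 count in replicate 4 of SCA1-High-FAPs and 0 in all other libraries, which is at or under the limit of the depth in both groups.

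The auxiliary enzymes, which prepare unsaturated chains for the cycle, did not pass the test either. *Eci1*, an isomerase of enoyl-CoA, was at 22.0 ± 8.75 CPM in the libraries of SCA1-High-FAPs, with 25.8 ± 7.99 CPM in those of SCA1-Low-FAPs (SD, n = 4 each, log2 fold change 0.21). *Eci2*, the second isomerase, was at 69.2 ± 16.4 and 60.7 ± 12.3 CPM (−0.19). *Decr1*, the 2,4-dienoyl-CoA reductase, was at 59.4 ± 13.8 and 52.2 ± 4.44 CPM (−0.19). The adjusted *p* was 0.67 or more for all 3.

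The electron transfer flavoprotein accepts electrons from the acyl-CoA dehydrogenases and hands them to ubiquinone through *Etfdh*. None of its 3 genes was called. *Etfa*, the α subunit, lies on chromosome 9 from 55454508 to 55512243 (minus strand) and was at 70.6, 34.4, 43.4 and 46.2 CPM in SCA1-High-FAPs. In SCA1-Low-FAPs it was at 30.5, 38.1, 34.6 and 28.8 CPM, with replicate 1 of SCA1-High-FAPs far above the rest and replicate 2 inside the range of SCA1-Low-FAPs. Its log2 fold change was −0.56 ± 0.25 (SE, unadjusted *p* = 0.0356, edgeR adjusted *p* = 0.194). *Etfb*, the β subunit, was at 184 ± 23.3 and 175 ± 8.54 CPM (SD, n = 4 each, −0.06), and *Etfdh*, the ubiquinone oxidoreductase, at 19.5 ± 6.80 and 18.8 ± 7.06 CPM (−0.06). For these 2 genes the groups overlapped.

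Pyruvate dehydrogenase E1 decarboxylates pyruvate. Its α subunit *Pdha1* was at 185 ± 23.0 CPM in the libraries of SCA1-High-FAPs, with 159 ± 15.4 CPM in those of SCA1-Low-FAPs (SD, n = 4 each, log2 fold change −0.23). The β subunit *Pdhb* was at 63.9 ± 21.7 and 51.4 ± 17.8 CPM (−0.30). Neither passed (adjusted *p* 0.427 and 0.584).

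Among the 13 TCA cycle members 0 were called by edgeR or DESeq2, 2 had an unadjusted *p* under 0.05, 5 were below 0 and 8 above, and the largest differences were in 2 subunits of the NAD-dependent isocitrate dehydrogenase, which oxidises isocitrate in the matrix. *Idh3g*, the γ subunit, lies on chromosome X from 73778963 to 73786897 (minus strand). It was at 105, 96.7, 102 and 85.4 CPM in SCA1-High-FAPs and at 74.0, 74.6, 63.1 and 67.3 CPM in SCA1-Low-FAPs. The groups did not overlap, but the log2 fold change of −0.48 ± 0.17 (SE) passed neither threshold (edgeR adjusted *p* = 0.0844). *Idh3b*, the β subunit, lies on chromosome 2 from 130279309 to 130284547 (minus strand). Its levels were 93.2, 68.7, 58.9 and 66.4 CPM in SCA1-High-FAPs and 54.6, 46.8, 47.9 and 48.6 CPM in SCA1-Low-FAPs. Here too the groups did not overlap, with replicate 1 of SCA1-High-FAPs well above the others (−0.54 ± 0.20 SE, adjusted *p* = 0.109). *Idh3a*, the catalytic α subunit, had nearly equal means in both groups, 61.2 ± 14.6 and 61.5 ± 17.6 CPM (SD, n = 4 each, log2 fold change 0.01). *Idh2*, the NADP-dependent mitochondrial enzyme, was at 97.1 ± 21.1 and 83.2 ± 22.6 CPM (−0.22).

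None of the other TCA cycle genes passed the test either. *Cs*, citrate synthase, which joins acetyl-CoA to oxaloacetate, was at 114 ± 25.5 and 125 ± 7.50 CPM (SD, n = 4 each, 0.13). The 2-oxoglutarate dehydrogenase complex is built from *Ogdh* (E1), *Dlst* (E2) and *Dld* (E3, shared with pyruvate dehydrogenase). *Ogdh* was at 74.8 ± 21.8 and 91.1 ± 14.3 CPM (0.28), *Dlst* at 87.4 ± 11.1 and 88.8 ± 4.91 CPM (0.02), and *Dld* at 60.5 ± 11.3 and 51.3 ± 4.70 CPM (−0.23). Succinyl-CoA synthetase pairs the common α subunit *Suclg1* with a GTP-forming (*Suclg2*) or an ATP-forming (*Sucla2*) β subunit. *Suclg1* was at 113 ± 13.2 and 98.9 ± 14.2 CPM (−0.19), *Suclg2* at 21.5 ± 11.5 and 21.9 ± 6.89 CPM (0.01), and *Sucla2* at 59.8 ± 4.85 and 62.3 ± 7.64 CPM (0.06). *Fh1*, fumarate hydratase, was at 55.7 ± 17.7 and 59.6 ± 16.7 CPM (0.09). *Mdh2*, the mitochondrial malate dehydrogenase, was the member furthest towards SCA1-Low-FAPs, at 298 ± 25.3 and 370 ± 59.8 CPM (log2 fold change 0.31 ± 0.15 SE, unadjusted *p* = 0.0513, adjusted *p* = 0.238). Its SCA1-High-FAPs libraries ran from 281 to 335 CPM and its SCA1-Low-FAPs libraries from 295 to 437 CPM.

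Partner subunits and related enzymes were also compared within each library, as the log2 ratio of their CPM (0.5 CPM added to each). Such a ratio does not depend on normalisation between libraries. Of the 9 pairs, the carnitine palmitoyltransferases *Cpt1a* over *Cpt2*, which act in succession and are not alternatives, differed most. Their log2 ratio was −0.38, −0.94, −0.65 and −0.37 in SCA1-High-FAPs and 0.41, 0.00, 0.51 and 0.77 in SCA1-Low-FAPs. Every SCA1-High-FAPs library held less *Cpt1a* than *Cpt2*, and no SCA1-Low-FAPs library did. The means of −0.59 ± 0.27 and 0.42 ± 0.32 (SD, n = 4 each) differed by 1.01 (*p* = 0.0286 by an exact two-sided permutation test, which cannot go lower with 70 assignments of the labels). After Benjamini-Hochberg adjustment over the 9 pairs the value was 0.257, which is the least that 1 pair alone can reach in this design. For the other pairs the exact permutation *p* ran from 0.171 to 0.943. The 3 with the largest remaining differences were *Etfa* over *Etfb* (−1.95 ± 0.47 and −2.40 ± 0.22), *Acadl* over *Acadm* (0.30 ± 0.16 and 0.58 ± 0.40) and *Idh2* over *Idh3a* (0.67 ± 0.39 and 0.44 ± 0.65), all SD with n = 4 each. *Hadha* over *Hadhb* was at 2.98 ± 0.57 and 2.79 ± 0.53, and *Idh3b* over *Idh3g* at −0.46 ± 0.26 and −0.49 ± 0.12. Ratios of *Suclg2* over *Sucla2*, *Pdha1* over *Pdhb* and *Acaa2* over *Acaa1a* differed by 0.07, 0.09 and −0.11 between the groups.

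**Figure D3:**
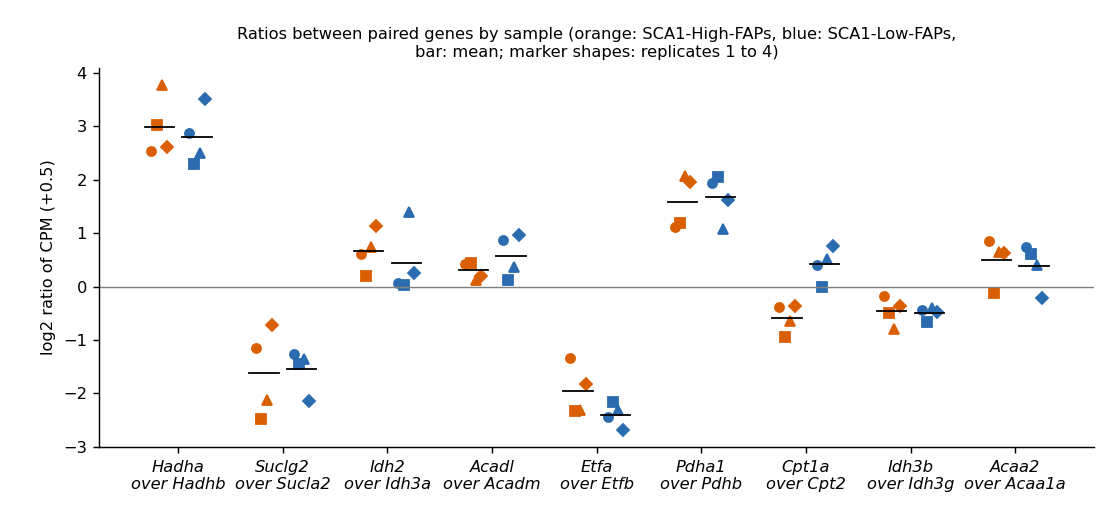
Log2 ratio of the CPM of 2 genes in each library, for 9 pairs, with 0.5 CPM added to each gene (orange SCA1-High-FAPs, blue SCA1-Low-FAPs, bars are means, marker shapes are replicates 1 to 4). The *Cpt1a* over *Cpt2* ratios lie below 0 in all 4 SCA1-High-FAPs libraries and at or above 0 in all 4 SCA1-Low-FAPs libraries, and the other pairs overlap.

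Within SCA1-High-FAPs the members were not evenly spread over the libraries. Replicate 1 was the highest of all 8 libraries for 14 of the 35 tested members and replicate 3 for 8, against 1 and 3 members for replicates 2 and 4. The 21 fatty acid oxidation members summed to 1479, 1297, 1531 and 1297 CPM in SCA1-High-FAPs. In SCA1-Low-FAPs they summed to 1130, 1229, 1193 and 1124 CPM, so that the groups did not overlap (1401 ± 122 and 1169 ± 50.8 CPM, SD, n = 4 each, 1.20 times as much in SCA1-High-FAPs). This sum includes *Acadm* and *Acadl*, which were called in these same libraries. The separation is therefore not independent of those calls, and the sum was not tested. The 15 pyruvate dehydrogenase and TCA cycle members summed to 1671, 1346, 1478 and 1351 CPM in SCA1-High-FAPs and to 1417, 1487, 1404 and 1462 CPM in SCA1-Low-FAPs, and these overlapped (1461 ± 152 and 1442 ± 38.8 CPM). Adipocyte markers summed to 12762, 5122, 8380 and 3150 CPM in the SCA1-High-FAPs libraries and to 797, 1111, 1491 and 522 CPM in those of SCA1-Low-FAPs. Within SCA1-High-FAPs, replicates 1 and 3 were thus the highest for the adipocyte markers and for both sets of members. The adipocyte markers and the pyruvate dehydrogenase and TCA cycle members were highest in replicate 1. The fatty acid oxidation members were highest in replicate 3. None of the 10 adipocyte markers was at 0 in all libraries. *Adipoq*, which defines adipocytes, was at 608, 169, 421 and 60.1 CPM in SCA1-High-FAPs and at 9.18, 9.26, 24.4 and 4.22 CPM in SCA1-Low-FAPs. The part of the adipocyte, proliferation and muscle fibre markers in the member differences was not tested. In such bulk samples, fewer cells of a type and less RNA per cell cannot be told apart.

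**Figure D4:**
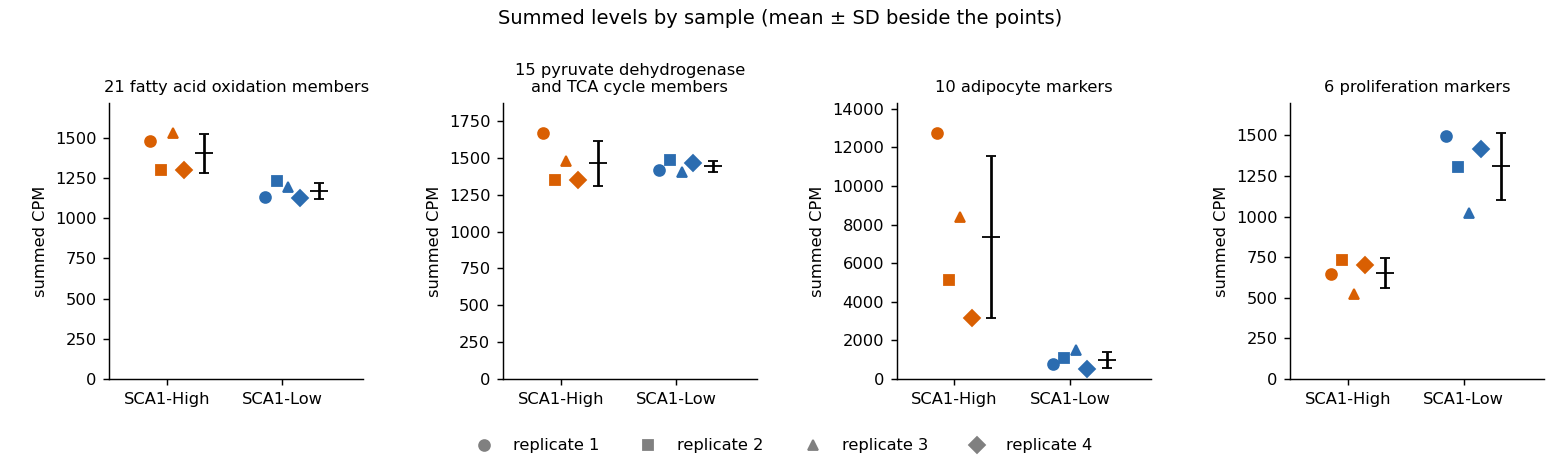
Summed CPM in each library, on linear axes from 0 that differ between the panels, of the fatty acid oxidation members, the pyruvate dehydrogenase and TCA cycle members, the adipocyte markers and the proliferation markers (marker shapes are replicates 1 to 4, mean ± SD beside the points). Within SCA1-High-FAPs, the sums of both sets of members and of the adipocyte markers are highest in replicates 1 and 3. The pyruvate dehydrogenase and TCA cycle sums overlap between the groups, and the proliferation marker sums are higher in SCA1-Low-FAPs.

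Beyond the 36 members, 88 further genes of these and adjoining pathways were listed, of which 71 were tested. Of these, edgeR called 10 higher in SCA1-High-FAPs but 0 towards SCA1-Low-FAPs, and 55 had a log2 fold change below 0, with a median of −0.29. Over all tested genes, 4.36% were called higher in SCA1-High-FAPs, 3.32% higher in SCA1-Low-FAPs, and 50% were below 0. The edgeR unadjusted *p* was under 0.05 for 21.3% of all tested genes. The counts by list that follow are to be read beside these shares. The only further pathway gene higher in SCA1-Low-FAPs at an unadjusted *p* under 0.05 was *Slc25a1*, the mitochondrial citrate carrier (log2 fold change 0.52, edgeR adjusted *p* = 0.173). DESeq2 called 13 higher in SCA1-High-FAPs and 1, *Bdh1* of ketone body oxidation, in SCA1-Low-FAPs (3.10, adjusted *p* = 0.0476). *Bdh1* had 48 counts in all and was not tested by edgeR. The count of 10 depended on single libraries, and was 5 without replicate 1 or without replicate 3 of SCA1-High-FAPs and 4, 4 and 5 without replicates 1, 2 and 4 of SCA1-Low-FAPs. Without both replicates 1 and 3 of SCA1-High-FAPs it was 1 (*Nrip1*, −0.73, adjusted *p* = 0.0449).

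Among regulators of fatty acid oxidation 3 of 13 were called. *Nrip1*, a nuclear receptor co-repressor of oxidative genes in fat, was at 205 ± 32.6 CPM in the libraries of SCA1-High-FAPs, with 109 ± 9.97 CPM in those of SCA1-Low-FAPs (SD, n = 4 each, log2 fold change −0.91, edgeR adjusted *p* = 0.00196). *Ppargc1a*, the PGC-1α co-activator of mitochondrial genes, was at 21.2, 19.9, 31.3 and 16.5 CPM and at 1.45, 3.27, 13.6 and 5.54 CPM (−1.82, adjusted *p* = 0.0297). *Rxra*, the partner of PPARs, was at 135 ± 18.8 and 88.0 ± 2.73 CPM (−0.62, adjusted *p* = 0.0217). The co-activator and the co-repressor were thus both higher in SCA1-High-FAPs. *Pparg*, the adipogenic PPAR, was at 109, 29.8, 23.4 and 26.8 CPM and at 12.6, 14.2, 27.3 and 14.0 CPM, with replicate 1 of SCA1-High-FAPs apart and the other libraries close to or within the range of SCA1-Low-FAPs (−1.45, edgeR adjusted *p* = 0.115, DESeq2 adjusted *p* = 0.0206). *Ppara*, the PPAR of liver and muscle, was not tested, with 71 counts in all, and *Cpt1b*, the muscle form of the outer-membrane transferase, had 0 counts.

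Peroxisomal oxidation had 3 of 15 tested genes called. *Abcd2*, a peroxisomal importer of fatty acyl-CoA, was at 94.2, 40.7, 45.5 and 16.5 CPM in SCA1-High-FAPs and at 11.1, 8.17, 12.7 and 5.02 CPM in SCA1-Low-FAPs (5.32 times higher in the former, −2.41, edgeR adjusted *p* = 0.00740). *Ech1*, a dienoyl-CoA isomerase, was at 106 ± 26.4 and 59.2 ± 5.63 CPM (SD, n = 4 each, −0.84, adjusted *p* = 0.0123), and *Scp2*, a lipid carrier and thiolase, at 85.4 ± 29.9 and 46.1 ± 13.1 CPM (−0.88, adjusted *p* = 0.0415). For all 3 the groups did not overlap, as for 14.1% of all tested genes in either direction. Of 12 further tested genes of mitochondrial acyl-CoA metabolism, not all of them of fatty acid β-oxidation, 1 was called. It was *Acadsb*, the dehydrogenase of short branched chains, at 126 ± 28.5 and 82.6 ± 8.00 CPM (−0.61, edgeR adjusted *p* = 0.0444).

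At the entry of pyruvate 2 of 11 tested genes were called. *Pdk2*, a kinase that switches pyruvate dehydrogenase off, was at 22.1, 15.8, 28.8 and 23.8 CPM in SCA1-High-FAPs and at 10.2, 3.27, 8.88 and 9.77 CPM in SCA1-Low-FAPs (2.77 times higher in the former, −1.47, edgeR adjusted *p* = 0.0215). *Mpc2*, a subunit of the mitochondrial pyruvate carrier, was at 229, 153, 132 and 138 CPM and at 87.5, 111, 117 and 56.8 CPM (−0.81, adjusted *p* = 0.0375). A carrier subunit and an inhibitor of pyruvate use were therefore both higher in SCA1-High-FAPs, but not every listed gene of their kind was. *Mpc1* of the same carrier was at 7.48 ± 2.30 and 6.76 ± 3.76 CPM (−0.18, edgeR adjusted *p* = 0.897). *Pdk3*, the most abundant of the listed kinases, was at 82.8 ± 11.9 and 80.7 ± 13.6 CPM (−0.04, edgeR adjusted *p* = 0.938). Of the cytosolic and shuttle partners 1 of 13 was called, *Idh1*, the cytosolic NADP-dependent isocitrate dehydrogenase, at 287 ± 87.3 and 150 ± 45.2 CPM (−0.93, adjusted *p* = 0.0262). Of the other TCA cycle genes, aconitase and the succinate dehydrogenase subunits, 0 of 5 was called by edgeR or DESeq2 and 1 had an unadjusted *p* under 0.05 (*Sdha*, 0.0445). Of 2 ketone body genes tested by edgeR 0 were called, and 0 had an unadjusted *p* under 0.05. Of the protein-coding transcripts of the mitochondrial genome 0 of 9 tested was called by edgeR or DESeq2, 2 had an unadjusted *p* under 0.05, and the median log2 fold change was −0.24. Their counts over all libraries were very uneven, from 104 for *mt-Atp6* and 131 for *mt-Co3* to 186415 for *mt-Nd4*. Some of them were therefore poorly measured, and the reason was not tested.

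**Figure D5:**
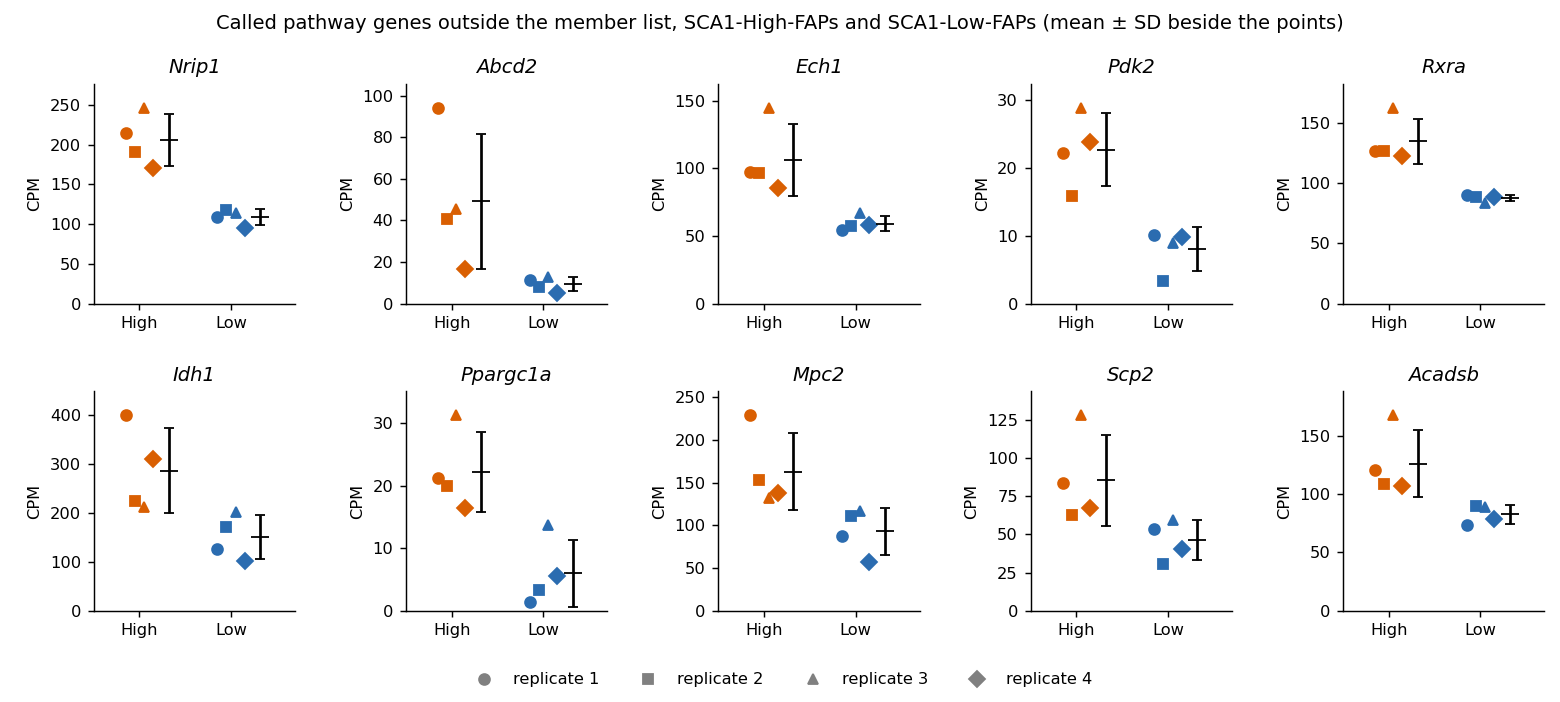
Level in CPM, on linear axes from 0, of the 10 called pathway genes outside the 36 members, in each library (marker shapes are replicates 1 to 4, mean ± SD beside the points, orange SCA1-High-FAPs and blue SCA1-Low-FAPs). In all 10 panels every SCA1-High-FAPs library lies above every SCA1-Low-FAPs library, but the genes were picked by their calls in these same libraries. Of all tested genes, 14.1% showed no overlap in either direction.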

How the data were processed

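RNA of 4 SCA1-High-FAPs and 4 SCA1-Low-FAPs cultures was made into QuantSeq 3′ FWD libraries. The authors trimmed the reads with bbduk, aligned them with STAR to mm10 and assigned them to Ensembl release 93 genes with htseq-count. The deposited values are raw counts per gene, and reads aligned to several positions were given to no gene. These amounted to 72.0 to 78.5 per 100 gene counts in SCA1-High-FAPs and 80.0 to 91.2 in SCA1-Low-FAPs. Reads outside any gene feature, 13.3% to 16.4%, were left out. The strand setting is not given in the sources used here.

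Names and GRCm38 positions came from GENCODE M21 for 31011 of 31053 genes. edgeR 4.0.16 (R 4.3.3) with TMM factors, filterByExpr (10 counts, 15 in total), the robust quasi-likelihood test and Benjamini-Hochberg adjustment over 10181 genes gave the results. The biological coefficient of variation was 0.279. CPM values are relative to each library's sum over the tested genes times its TMM factor. Each standard error is the absolute log2 fold change divided by √F. Ratios were tested by exact permutation with scipy 1.17.1. DESeq2 1.42.0, RLE factors, other filters and thresholds, the replicate block, other pseudocounts, and the removal of each library were the alternatives, and the removal of replicates 1 and 3 of SCA1-High-FAPs together was added after seeing the data. The scripts were tested on simulated data.

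Every member was accounted for. Per-library values were given for members called, with an unadjusted *p* under 0.05, or without overlap, and called genes, up to 4 per list, were named from the other pathway lists. Other non-members that are named, *Pparg*, *Ppara*, *Cpt1b*, *Bdh1*, *Slc25a1*, *Sdha*, *Mpc1* and *Pdk3* among them, were chosen after their values were seen. The members and lists were chosen with earlier results of these data known. The promoter search had been planned only for 3 or more called members, and was made for 2 after the results were seen. Promoters came from RefSeq (GRCm38.p6) and covered 32 of 36 members. *Crat*, *Acaa2*, *Decr1* and *Idh3a* had no entry.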

Additional observations from a re-analysis of the deposited data

Results flagged for a closer look

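*Etfdh*, the oxidoreductase that hands electrons from the electron transfer flavoprotein to ubiquinone, was at 29.7 CPM in replicate 1 of SCA1-High-FAPs, while the other 3 libraries of the group held 15.4 to 17.2 CPM. The gap to the nearest library was 0.87 of the group's whole range, more than Dixon's test allows for 4 samples. It was the only one of 70 groups of 4 libraries examined (35 members in 2 cell states) with a library apart in this way, and chance alone sets about 1 group in 20 apart. Replicate 1 was also the library with the highest adipocyte marker sum, and whether the 2 are linked was not tested.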

How the results depend on the processing

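*Acadm* was called under every alternative except the removal of replicates 1 and 3 of SCA1-High-FAPs together, with a log2 fold change from −1.08 to −0.86 when 1 library was left out, and 2 members were called under RLE factors, DESeq2, both other filters, the fold threshold of 1.5 and the replicate block. At an adjusted *p* under 0.01, 307 of all genes, 1 member and 2 of the further pathway genes were called. With replicates 1 and 3 of SCA1-High-FAPs both left out, which leaves 6 libraries and was chosen after seeing the data, these counts were 244, 0 and 1. Leaving out 1 library at a time gave 410 to 1017 genes, 1 to 2 members, 1 to 2 higher in SCA1-High-FAPs, and 4 to 12 further pathway genes higher in SCA1-High-FAPs. DESeq2 put 1 further pathway gene (*Bdh1*) higher in SCA1-Low-FAPs, where edgeR had 0. The cause of these shifts was not tested.

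Signs changed only for values that were not called. With replicates 1 and 3 of SCA1-High-FAPs out, the log2 fold changes were 0.09 for *Slc25a20*, 0.0091 for *Acadvl*, 0.03 for *Echs1*, 0.05 for *Etfb*, 0.19 for *Etfdh*, 0.03 for *Idh2*, −0.04 for *Suclg2* and −0.04 for *Fh1*. The filter of 10 counts in every library gave −0.02 for *Idh3a*, −0.00063 for *Dlst* and −0.01 for *Suclg2*. Without 1 library, the range was −0.31 to 0.06 for *Slc25a20*, −0.10 to 0.02 for *Hadha*, −0.05 to 0.37 for *Hadhb*, −0.39 to 0.05 for *Acaa1a*, −0.11 to 0.03 for *Etfb*, −0.25 to 0.21 for *Etfdh*, −0.15 to 0.15 for *Idh3a*, −0.02 to 0.11 for *Dlst*, −0.20 to 0.32 for *Suclg2*, −0.02 to 0.12 for *Sucla2* and −0.11 to 0.28 for *Fh1*. For the ratios it was −0.07 to 0.29 for *Pdha1* over *Pdhb*, −0.15 to 0.06 for *Idh3b* over *Idh3g*, −0.32 to 0.09 for *Acaa2* over *Acaa1a*, −0.22 to 0.37 for *Suclg2* over *Sucla2* and −0.43 to 0.07 for *Hadha* over *Hadhb*.

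Whether same-numbered libraries share a mouse is not stated, and correlations over 4 libraries per group cannot decide it. Correlations of same-numbered deviations ran from −0.0502 to 0.0067, and 0 of 4 libraries correlated best with their own number. The replicate block gave 697 genes, 2 members and 7 further pathway genes higher in SCA1-High-FAPs, adjusted *p* of 0.0154 for *Acadm* and 0.0468 for *Acadl*, and −0.0016 for *Idh3a*. Under it *Acadsb* (log2 fold change −0.59, adjusted *p* = 0.0776), *Idh1* (−0.94, 0.0619), *Rxra* (−0.61, 0.0591), *Ly6a* (0.65, 0.0573) and *Notch3* (−1.57, 0.0955) were no longer called, at folds close to those without the block. Paired by number, the *Cpt1a* over *Cpt2* difference stayed at 1.01, with an adjusted *p* of 1 in a test that cannot go below 0.125 for a single pair of genes. *Ehhadh*, with 3 counts over all libraries together, could not be compared.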

Other observations

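*Sdhd*, a membrane subunit of succinate dehydrogenase, varied widely between libraries of 1 group. It was at 41.9, 0.452, 4.59 and 20.2 CPM in SCA1-High-FAPs replicates 1 to 4 and at 1.93, 14.2, 14.9 and 3.70 CPM in SCA1-Low-FAPs, which gave a log2 fold change of −0.95 (edgeR adjusted *p* = 0.682). It had 247 counts in all libraries. This gene was chosen after its values were seen.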
